A study of Mus musculus with 32 samples.

Results

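Hepatoblasts, the endoderm-derived progenitors of hepatocytes and bile duct cells, were compared between embryonic day (E) 9.5 and E10.5 to E11.5. They were the liver cells that the annotation of the study calls epithelial, and the rule took those of E9.5 embryos 1, 2 and 3 on one side and those of E10.5 embryos 1 and 2 and E11.5 embryo 2 on the other. These cells filled 48 of the 1916 columns of the series, and 2 of the 10 columns of E9.5 embryo 3 held identical values, which left 47 cells from 6 embryos. E9.5 embryos 1, 2 and 3 gave 9, 16 and 9 cells, both E10.5 embryos gave 4 each, and E11.5 embryo 2 gave 5. The embryo mean was the replicate, 3 against 3, because cells of 1 embryo share their animal and library.

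The series profiled single cells of 8 organs of mouse embryos by 3′ tag counting, in which each captured RNA molecule carries a unique molecular identifier (UMI). All embryos were of the strain C57BL/6J, and the labels name no transgene, mutation or treatment. By the labels, E9.5 embryo 2 was female and the other embryos were male. Libraries of E9.5 embryos 1 and 2 were run on HiSeq 2500, whereas those of E9.5 embryo 3 and of every later embryo were run on HiSeq 4000. The liver cells of E9.5 embryo 3 shared a library with lung cells, and the 2 embryos of E10.5 shared 1 liver library. The E10.5 embryos were still counted as 2 replicates, and no setting took them as 1.

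The liver bud forms from ventral foregut endoderm. Its epithelial cells lose their columnar arrangement, enter the septum transversum mesenchyme and become hepatoblasts, which then produce rising amounts of plasma proteins while blood cells colonise the organ. Afp, Alb, Apoa1 and Ttr are markers of this lineage, and transcription factors such as Hhex, Prox1, Hnf4a and Tbx3 are known for their role in liver bud growth and hepatoblast fate.

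The label was checked against the 4 markers. On the scale used throughout, log2(CPM/10 + 1), where CPM is UMIs scaled to the same total in every cell (counts per 1000000) and 1 stands for 10 CPM, 45 of 47 cells were at 1 or more in all of Afp, Alb, Apoa1 and Ttr. Depth per cell ran from 83756 to 2404946 UMIs. The median per embryo was 436805, 881059 and 851677 UMIs at E9.5, against 171481, 258798 and 427786 UMIs in the later embryos.

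The liver cells labelled E9.5 embryo 1 and E10.5 embryo 1 did not match their sex labels, and those of the other liver embryos did. Xist, which is transcribed from the inactive X chromosome of female cells, had a mean of 85.0 CPM over all 44 liver columns labelled E9.5 embryo 1, where the summed Y-linked genes Ddx3y, Eif2s3y, Kdm5d and Uty had 0.104 CPM, although the label is male. In the intestine labelled E9.5 embryo 1, Xist was at 0 and the Y-linked genes summed to 86.7 CPM, and forebrain, hindbrain, heart and somite of that embryo had more Y-linked RNA than Xist as well. At E10.5 the liver columns of embryo 1 had 81.9 CPM of Xist and 2.72 CPM of Y-linked genes, and those of embryo 2 had 2.55 CPM and 83.1 CPM, while the other 7 organs showed the opposite order for both numbers. The E10.5 numbers do not enter the comparison of days, since both embryos are on the later side. The liver library labelled E9.5 embryo 1 does, and whether it and the liver library of E9.5 embryo 2 came from 1 animal or from separate animals cannot be told apart here. The calls that remain without it are therefore named beside the main result.

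**Figure D1:**
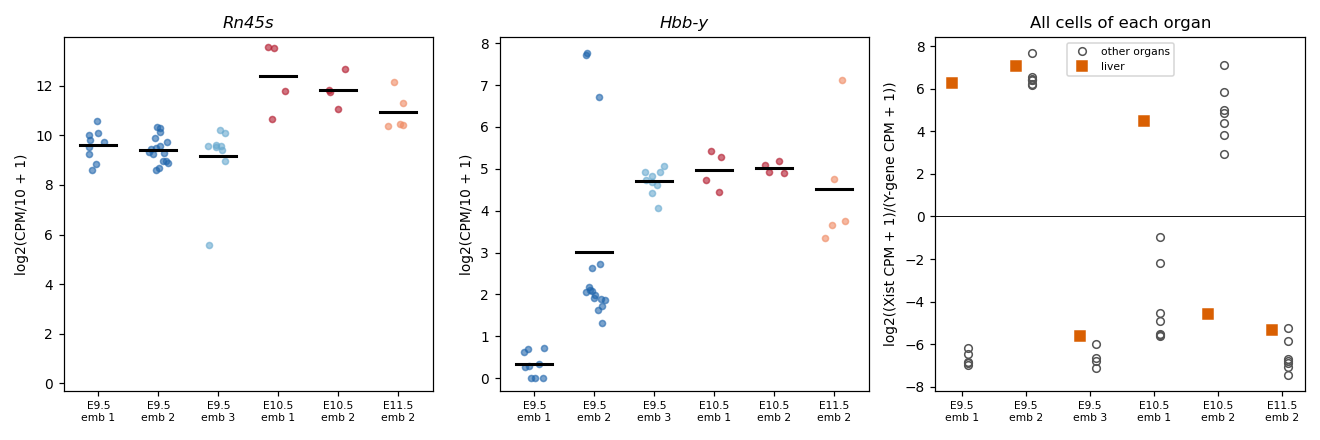
Left and middle, levels of Rn45s and Hbb-y in each hepatoblast (points, log2(CPM/10 + 1)) with the embryo mean (bars). Right, log2 ratio of mean Xist CPM to mean summed CPM of 4 Y-linked genes, each plus 1, over all cells of an organ, with liver as squares and other organs as circles. Liver lies on the opposite side of 0 from the other organs for E9.5 embryo 1 and both E10.5 embryos.

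Later hepatoblasts had more RNA of Alb, Afp and Apob and of the coagulation and complement genes Kng1, C3, Fga, Cfi and F2, and E9.5 hepatoblasts had more RNA of the adhesion genes Cldn6 and Epcam, of Slc2a3, Pkm and Bnip3 and of Tmsb10 and Marcksl1. Of 10806 genes tested with limma, 39 passed an adjusted p of 0.05 with a log2 difference of at least 1 in size, which is 0.361% of the genes tested. These comprised 18 genes that were higher at E9.5 (0.167% of the genes tested) and 21 that were higher later (0.194%). The counts of called list members given below stand beside these shares. Embryo means of the groups did not overlap in any of the 39. Over all genes tested, means did not overlap in 12.9% of genes with E9.5 higher and in 5.15% with later higher, the median difference was 0.09, and 1380 genes had an unadjusted p under 0.05. Without the library labelled E9.5 embryo 1, 4 of the 39 genes passed, namely Kng1, Apob, Tmsb10 and Rn45s. With the sequencer as covariate, or with E9.5 embryos 1 and 2 taken as 1 embryo, 0 genes passed in limma, with 370 and 836 at an unadjusted p under 0.05.

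**Figure D2:**
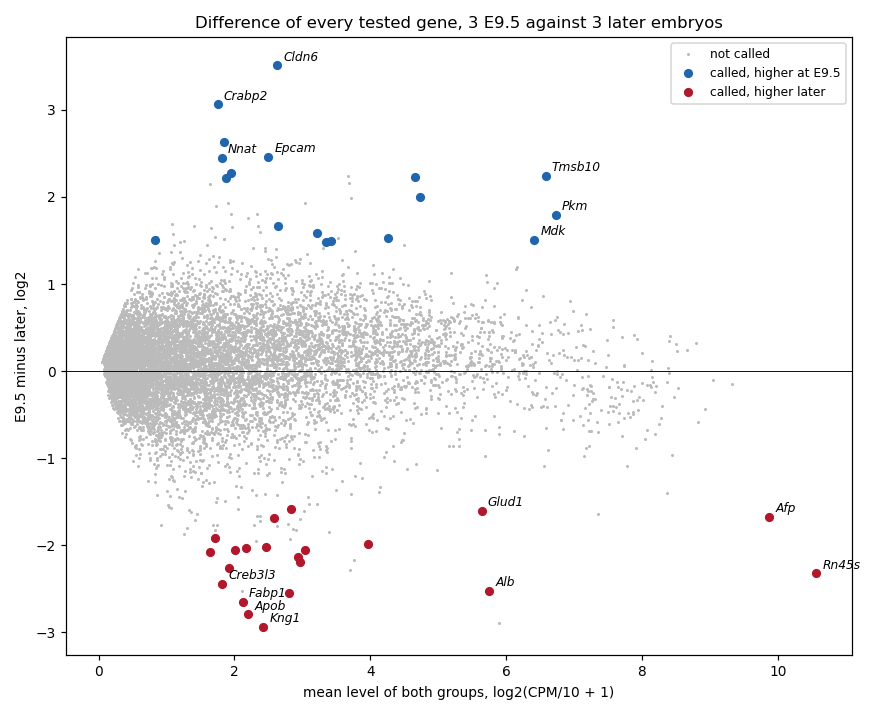
Difference between the mean of 3 E9.5 and 3 later embryos (vertical axis, log2) against the mean level of both groups (horizontal axis, log2(CPM/10 + 1)) for each of the 10806 genes tested. Blue marks the 18 genes called higher at E9.5, led by Cldn6, and red the 21 genes called higher later, led by Kng1.

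The promoters of Alb and Afp are shown, because these were the markers of the lineage that passed the test and they neighbour each other on chromosome 5. The 150 bases before the annotated start of each (RefSeq, GRCm38.p6) are printed on the plus strand, on which both genes lie. The Alb window lies at chr5:90460720-90460869 and the Afp window at chr5:90490564-90490713. In GENCODE M21 the genes start further downstream, at 90460897 (Alb) and 90490737 (Afp), so the windows do not reach those starts.
Alb: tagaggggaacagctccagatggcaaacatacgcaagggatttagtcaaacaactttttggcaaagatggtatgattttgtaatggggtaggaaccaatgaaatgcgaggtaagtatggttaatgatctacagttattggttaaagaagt
Afp: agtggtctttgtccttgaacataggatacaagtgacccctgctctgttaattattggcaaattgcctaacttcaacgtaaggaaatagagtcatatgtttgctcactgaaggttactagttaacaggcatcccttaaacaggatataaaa

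Of the markers, Afp and Alb rose. Afp, the fetal counterpart of albumin, was at 8.55, 8.72 and 9.85 in E9.5 embryos 1, 2 and 3 and at 10.33, 11.10 and 10.71 in E10.5 embryos 1 and 2 and E11.5 embryo 2. The difference of E9.5 minus later was −1.67 ± 0.273 (SE, n = 3 embryos a side, limma adjusted p = 0.0115), and every later embryo lay above every E9.5 embryo. Alb, the main carrier protein of plasma, was at 3.90, 4.08 and 5.50 at E9.5 and at 6.43, 5.86 and 8.76 later (−2.52 ± 0.519, limma adjusted p = 0.0406). The highest Alb level was that of E11.5 embryo 2, while the closest embryos of the groups, E9.5 embryo 3 and E10.5 embryo 2, lay less than 1 unit apart. Alb was at 1 or more in 32 of 34 E9.5 cells and in 13 of 13 later cells, so that most cells of both groups held its RNA. Within HiSeq 4000, where E9.5 embryo 3 alone stands against the later embryos, the difference was −0.86 for Afp and −1.51 for Alb, and neither passed the test.

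Apoa1 and Ttr did not pass. Apoa1, the main protein of high-density lipoprotein, was at 5.30, 6.88 and 7.41 at E9.5 and at 7.42, 8.21 and 8.88 later (−1.64 ± 0.401, limma adjusted p = 0.0892), without overlap. Ttr, which carries thyroid hormone and retinol-binding protein, ranged from 7.66 to 8.07 at E9.5 and from 8.04 to 8.29 later (limma adjusted p = 0.506), and its groups overlapped.

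Among 26 tested genes of secreted plasma proteins, 3 rose (Apob, Alb and Afp) and 0 fell, with a median difference of −0.96. Embryo means did not overlap in 13 of the 26, all higher later, against 5.15% of all genes tested. Apob, the structural protein of very-low-density lipoprotein, was at 0.05, 0.94 and 1.42 at E9.5 and at 4.00, 3.43 and 3.37 later (−2.79 ± 0.387, limma adjusted p = 0.0026). It was at 1 or more in 12 of 34 E9.5 cells and in 13 of 13 later cells, and only 1 UMI of Apob was counted over the 9 cells of E9.5 embryo 1. Apob remained past the threshold without that embryo (−2.42, limma adjusted p = 0.027). Serpina6, which carries corticosteroids in plasma, was at 2.27, 4.45 and 6.66 at E9.5 and at 6.70, 7.19 and 8.15 later, and did not pass (−2.89, limma adjusted p = 0.0619).

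Among 20 tested genes of coagulation and complement, 5 rose (Kng1, C3, Fga, Cfi and F2) and 0 fell, with a median difference of −0.93. Kng1, the precursor of bradykinin (chromosome 16, 23057865 to 23082078 in GRCm38, GENCODE M21), was at 0.30, 1.17 and 1.41 at E9.5 and at 3.53, 3.30 and 4.84 later (−2.93 ± 0.417, limma adjusted p = 0.00265). Reads that it shares with its close paralogue Kng2 are not in its count, since only uniquely mapped reads were counted. In single cells, Kng1 was at 1 or more in 15 of 34 E9.5 cells and in 12 of 13 later cells. Fga, the alpha chain of fibrinogen, was at 1.17, 1.90 and 2.51 at E9.5 and at 3.71, 3.71 and 4.76 later (−2.19 ± 0.382, limma adjusted p = 0.0127). C3, the central complement component, was at 0.43, 1.02 and 0.92 at E9.5 and at 2.56, 2.86 and 3.73 later (−2.26 ± 0.387, limma adjusted p = 0.0115). The 3 later embryos lay above the 3 E9.5 embryos in each of these genes, with E9.5 embryo 1 lowest. Cfi, a regulator of complement, differed by −2.13, and F2, which is prothrombin, by −1.99 with an adjusted p of 0.0494 in limma, just inside the threshold.

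Of 23 tested genes of lipid and sterol metabolism, 1 rose and 0 fell (median −0.17). It was Fabp1, a fatty acid binding protein of liver and intestine, at 0.29, 0.64 and 1.48 at E9.5 and at 3.31, 2.26 and 4.79 later (−2.65 ± 0.499, limma adjusted p = 0.0247). Lcat, an enzyme that esterifies plasma cholesterol, differed by −1.70 without passing (limma adjusted p = 0.0522). Of 16 tested genes of amino acid, urea cycle and sugar metabolism, 0 passed in limma (median −0.50). Embryo means did not overlap in 8 with later higher and in 1 with E9.5 higher, against 5.15% and 12.9% of all genes tested. Arg1, the last enzyme of the urea cycle, had the opposite order, from 1.15 to 2.59 at E9.5 and from 0.61 to 0.82 later, and did not pass. Outside the lists, 3 called genes encode enzymes of metabolism. Sord, which oxidises sorbitol, differed by −2.55, Acadl, which acts in fatty acid oxidation, by −2.05, and Glud1, the mitochondrial glutamate dehydrogenase, by −1.60 (limma adjusted p = 0.0394, 0.0418 and 0.0115). E9.5 embryo 3, at 3.14, lay closer to the later embryos (3.50 to 4.59) than to E9.5 embryo 1 (0.21) in Sord, whereas the E9.5 embryos were close together in Glud1 (4.60 to 5.16) and apart from the later ones (6.00 to 6.90).

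**Figure D3:**
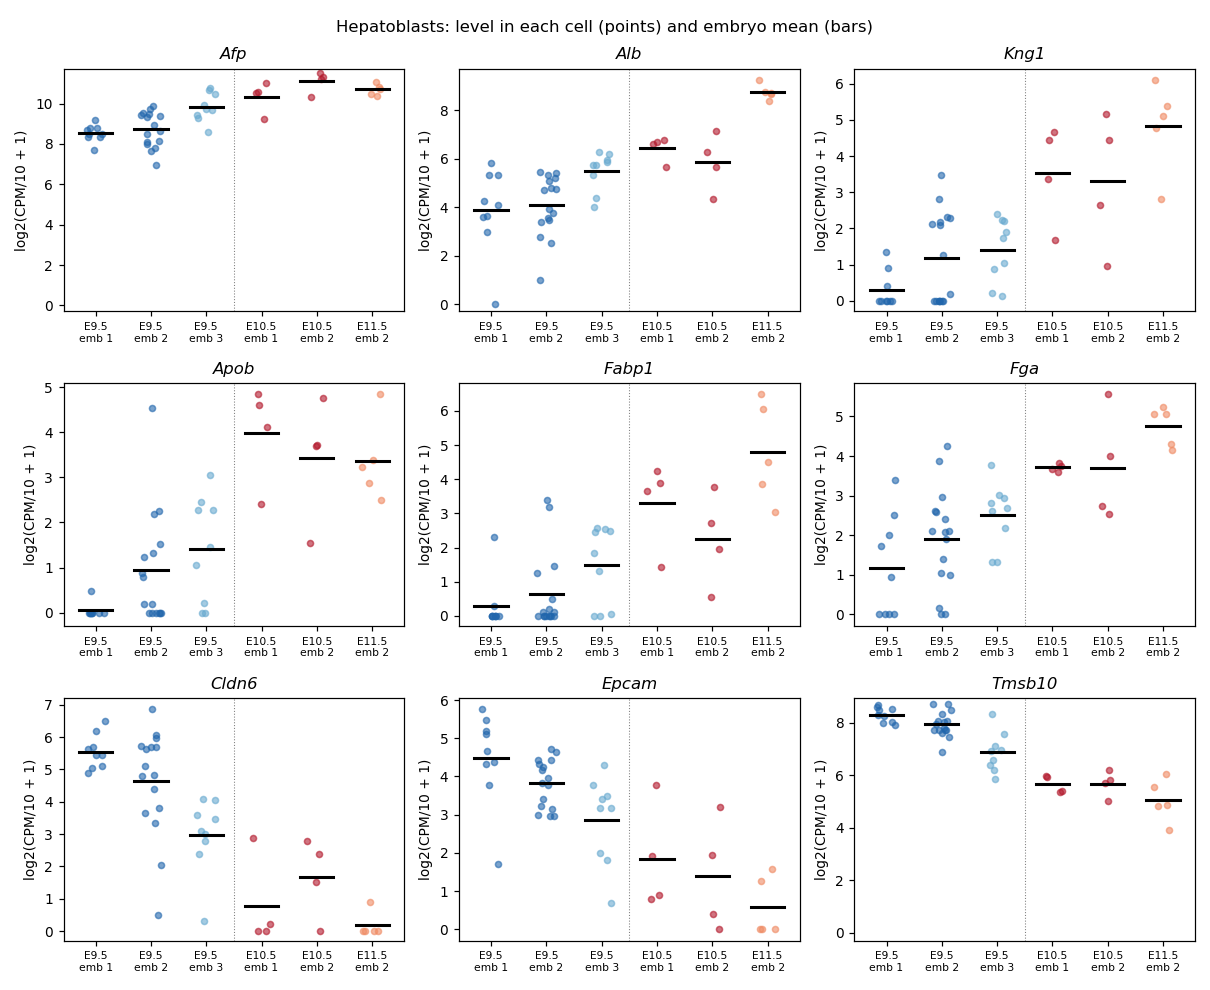
Level of 9 genes in each hepatoblast (points, log2(CPM/10 + 1)) with the embryo mean (black bars), by embryo, with E9.5 left and later embryos right of the dotted line. Blue is E9.5 (light blue is embryo 3, run on HiSeq 4000), red is E10.5 and orange E11.5. Afp to Fga are higher in the later embryos, Cldn6, Epcam and Tmsb10 at E9.5, and E9.5 embryo 3 lies nearest to the later embryos in each of the 9.

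Of 24 tested liver transcription factors, 1 rose and 0 fell, with a median of 0.13. Creb3l3, a membrane-bound factor that acts on genes of lipid metabolism and the acute phase, was at 0.00, 0.86 and 0.95 at E9.5 and at 2.29, 3.23 and 3.61 later (−2.44 ± 0.413, limma adjusted p = 0.0115). It was at 1 or more in 11 of 34 E9.5 cells and 12 of 13 later cells. Of the 24, 3 did not overlap with E9.5 higher and 1 with later higher, against 12.9% and 5.15% of all genes tested. Hhex, Prox1, Hnf4a and Tbx3 overlapped between groups. Hhex ranged from 3.73 to 5.08 at E9.5 and from 3.16 to 4.35 later, Prox1 from 1.79 to 4.07 and from 2.54 to 3.42, Hnf4a from 1.96 to 2.61 and from 1.94 to 3.70, and Tbx3 from 1.96 to 2.99 and from 1.79 to 3.55. Foxa2, Onecut1 and Cebpa differed by 0.61, 0.72 and −0.26. In these 7 factors the limma adjusted p was 0.503 or more, and each turned its sign under at least 1 other processing choice. Hnf4a was at 1 or more in 28 of 34 E9.5 cells and 13 of 13 later cells, and Prox1 in 30 and 13, so that most cells of both groups held RNA of these factors.

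Of 29 tested genes of epithelial adhesion, 2 fell with time and 0 rose (median 0.34). There were 21 differences above 0 and 8 below, where 59.5% of all genes tested had a difference above 0. The list mean was 2.04, 1.83 and 1.33 in E9.5 embryos 1, 2 and 3 and 1.30, 1.34 and 1.20 later. It did not separate the groups, as E9.5 embryo 3 lay below E10.5 embryo 2. In this list 10 did not overlap with E9.5 higher, against 12.9% of all genes. Cldn6, a tight junction protein of embryonic epithelia (chromosome 17, 23679249 to 23682446 in GRCm38, GENCODE M21), was at 5.55, 4.63 and 2.97 at E9.5 and at 0.78, 1.67 and 0.18 later (3.51 ± 0.506, limma adjusted p = 0.00265). It was at 1 or more in 32 of 34 E9.5 cells and in 4 of 13 later cells. Epcam, an adhesion protein of simple epithelia, was at 4.49, 3.83 and 2.87 at E9.5 and at 1.84, 1.39 and 0.57 later (2.46 ± 0.419, limma adjusted p = 0.0115). Both genes followed the same order of groups, with E9.5 embryo 1 highest and E11.5 embryo 2 lowest. Without the library labelled E9.5 embryo 1 the difference was 2.93 for Cldn6 (limma adjusted p = 0.0567) and 2.08 for Epcam (limma adjusted p = 0.177). Cdh1, the classical epithelial cadherin, was at 0.69 to 1.08 at E9.5 and 0.81 to 2.16 later, with overlap. In the epithelial (E-score), mesenchymal (M-score) and stemness (S-score) lists of the study, 2 of 23, 0 of 7 and 0 of 56 tested members passed in limma, the 2 being Cldn6 and Epcam.

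Single cells held RNA of both kinds. Taking Cldn6 and Kng1, the called genes with the largest difference in each direction, both were at 1 or more in 1 of 9, 8 of 16 and 5 of 9 cells of E9.5 embryos 1, 2 and 3. Cldn6 without Kng1 was found in 8, 7 and 3 of these cells. In the later embryos, 4 of 13 cells held both, 8 held Kng1 alone, 0 held Cldn6 alone and 1 held neither, and each of the 5 cells of E11.5 embryo 2 held Kng1 alone. Both genes were picked for their difference between these groups, so the split of cells by day follows in large part from the choice. A count of 0 at these depths does not show that a transcript was absent.

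Genes of sugar use and of the actin cytoskeleton were also called on the E9.5 side. Of 20 tested genes listed under glycolysis, 3 were higher at E9.5 and 0 later (median 0.45), of which Slc2a3 and Pkm act in sugar use. Slc2a3, a high-affinity glucose transporter, was at 3.95, 3.17 and 2.16 against 0.82, 1.0 and 0.63 (2.28 ± 0.417, limma adjusted p = 0.0201). Pkm, which encodes pyruvate kinase, differed by 1.80 and Bnip3, a mitochondrial protein induced in low oxygen, by 1.53 (limma adjusted p = 0.0247 and 0.0406). Of 28 tested cytoskeleton and neurite genes, 2 were higher at E9.5 and 0 later (median 0.27). Tmsb10, which binds actin monomers, was at 8.30, 7.93 and 6.88 against 5.65, 5.68 and 5.04 (2.25 ± 0.304, limma adjusted p = 0.0026). Marcksl1, a membrane protein that binds actin, differed by 2.0. Tmsb10 remained past the threshold without E9.5 embryo 1 (1.95, limma adjusted p = 0.0287).

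Among 30 tested signalling genes of the liver bud, 1 was higher at E9.5 and 0 later (median 0.29). Crabp2, which delivers retinoic acid to its receptors, was at 4.79, 3.76 and 1.31 at E9.5 and at 0.00, 0.32 and 0.35 later (3.06 ± 0.589, limma adjusted p = 0.0275), and E9.5 embryo 3 stood nearer to the later embryos than to the other E9.5 embryos. The remaining genes of the leading 10 at E9.5 were Mfap2, a microfibril protein (2.63), Nnat, an imprinted membrane proteolipid (2.45), Ccnd2, a cyclin of G1 (2.23), and Tes, a focal adhesion protein (2.22), with limma adjusted p from 0.0189 to 0.0418. Nnat was at 3.77, 3.51 and 1.86 at E9.5 and at 0.66, 0.38 and 0.74 later. Mfap2 was at 4.48, 3.38 and 1.61 against 0.06, 0.80 and 0.73. In both genes E9.5 embryo 3 lay below the other E9.5 embryos and above every later embryo. The other called genes, none of which led its direction, were Tspan13, Rcn2, Mdk, Rnf219, Asf1a and Asb4 at E9.5, with differences from 1.48 to 1.67, and Osgin1, Gsn, Nostrin, Rnd3 and Cluh later, with differences from −2.05 to −1.58.

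Other lists had no call in limma, with 0 of 43 G1/S genes, 0 of 54 G2/M genes, 0 of 73 respiratory chain genes, 0 of 40 genes of the secretory pathway, 0 of 15 genes of iron and hematopoietic support, 0 of 32 mesenchymal and matrix genes and 0 of 26 fetal growth genes. Their medians lay between −0.08 and 0.20. The mean level of G2/M genes was 3.66 in E9.5 embryo 1 and 3.39 in E10.5 embryo 1, against 2.66 to 2.89 in the other 4 embryos.

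**Figure D4:**
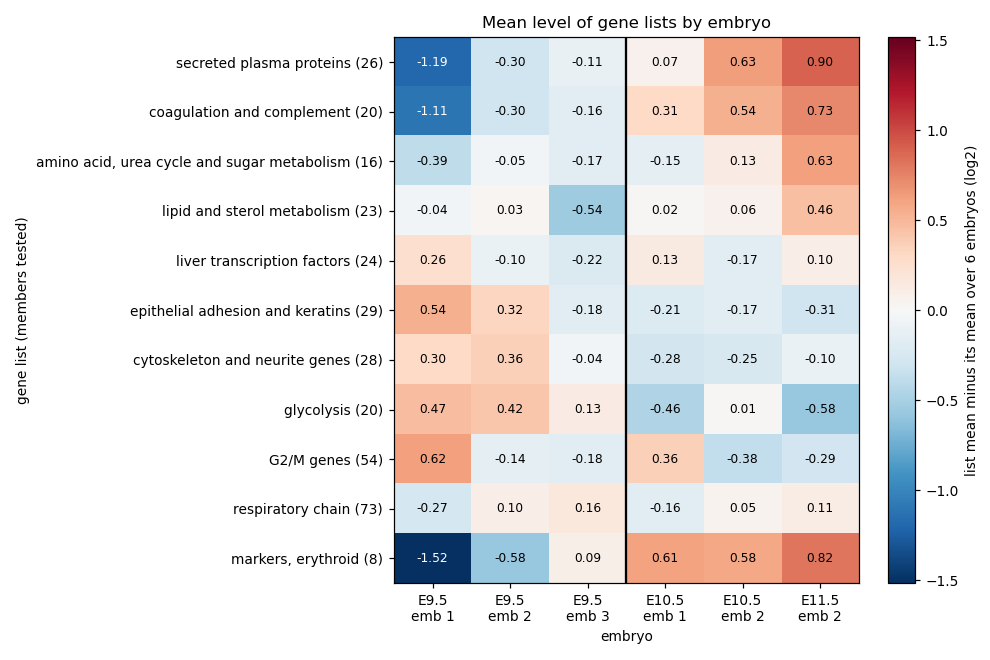
Mean level of 11 gene lists in each embryo minus the mean of that list over the 6 embryos (log2, colour and number), with the number of tested members after each name. Plasma protein, coagulation and complement and erythroid lists are lowest in E9.5 embryo 1 and above 0 in each later embryo. Glycolysis genes are above 0 in each E9.5 embryo and, at 0.01, in E10.5 embryo 2. Epithelial adhesion genes are above 0 in E9.5 embryos 1 and 2 only.

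The E9.5 embryos were not alike. E9.5 embryo 3 was the E9.5 embryo nearest to the later ones in 15 of the 18 genes higher at E9.5 and in 18 of the 21 genes higher later. Over all genes without overlap it was nearest in 49.9% and 47.8%. Within HiSeq 4000, the difference of E9.5 embryo 3 minus later was −2.48 for Kng1, −2.18 for Apob, 2.10 for Cldn6, 1.60 for Epcam and 1.42 for Tmsb10. With 1 embryo of E9.5 on that sequencer, sequencer and embryo cannot be told apart on the E9.5 side.

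Rn45s, the ribosomal RNA precursor, had the lowest p of all genes. It was at 9.61, 9.43 and 9.18 at E9.5 and at 12.39, 11.83 and 10.95 later (−2.32 ± 0.258, limma adjusted p = 0.000297), and its median share of the UMIs of a cell was 0.671% to 0.846% at E9.5 and 1.42% to 7.64% later. In intestinal epithelium the median share was 0.725% to 1.95% at E9.5 and 1.62% to 1.90% later. Leaving Rn45s out of the totals gave 34 calls, 33 of them among the 39. Of 21 tested genes that respond to cell handling, 0 passed in limma (median −0.27). Jun was at 5.01 and 4.58 in the E10.5 embryos against 1.77 to 2.38 in the other 4, and Atf3 at 2.34 and 2.04 against 0.00 to 0.36, while Dnajb1 was at 3.43 and 1.14 against 2.26 to 2.91. With the E10.5 embryos only as the later side, Jun (−2.81), Junb (−2.43) and Atf3 (−2.0) passed (limma adjusted p = 0.00224, 0.0412 and 0.0412). The part of either in the results was not tested.

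Of 19 erythroid markers, 8 were tested and 2 passed, Car2 (−2.07, limma adjusted p = 0.0275) and Blvrb (−1.91, limma adjusted p = 0.0406), which encode a carbonic anhydrase and biliverdin reductase B. Both were higher later, as were 0.194% of all genes tested by the same call. The 19 markers summed to 29.4, 867 and 598 CPM per cell at E9.5 and to 803, 787 and 1175 CPM later. The groups overlapped in these sums, and single cells carried some of these means. Of the 16 cells of E9.5 embryo 2, 1 held 5466 CPM, and of the 5 cells of E11.5 embryo 2, 1 held 4143 CPM. Without that cell each, the means were 560 and 434 CPM. On the log scale, the mean level of the 8 tested markers was 0.32, 1.26 and 1.92 at E9.5. In the later embryos it was 2.45, 2.42 and 2.65, without overlap. All 8 differences were below 0, and 4 of the 8 markers did not overlap with later higher, against 5.15% of all genes tested. Hbb-y, an embryonic beta globin, was at 0.33, 3.02 and 4.70 at E9.5 and between 4.53 and 5.03 later, and 6 adult globin genes were listed at 0 in every cell, among them near-identical copies whose reads a count of uniquely mapped reads can miss. Markers of blood progenitors and macrophages summed to 23.9 to 32.7 CPM at E9.5 and 41.7 to 76.5 CPM later. For endothelium the sums were 123 to 296 and 89.7 to 153, for mesenchyme and septum transversum 34.1 to 127 and 54.0 to 134. For cardiac muscle they were 6.53 to 127 and 2.24 to 304, for bile duct 108 to 356 and 79.4 to 126. Those of other endoderm summed to at most 37.1 CPM. Single cells carried some of these upper ends. Without the highest cell for each list, E11.5 embryo 2 had 36.3 CPM of cardiac muscle, 62.6 of mesenchyme and 4.64 of other endoderm markers. Likewise, E9.5 embryo 3 had 127 CPM of endothelial markers. Cardiac muscle markers summed to 119 and 127 CPM in E9.5 embryos 1 and 2 and to 6.53 CPM in embryo 3. Each cell of embryos 1 and 2 held at least 53.5 CPM of them, and each cell of embryo 3 at most 18.9 CPM. Tested were 7 of 16 members for blood progenitors and macrophages and 3 of 12 for endothelium. For mesenchyme and septum transversum 8 of 17 were tested, and for cardiac muscle 7 of 16. For other endoderm it was 1 of 15 and for bile duct 7 of 11. Of these tested genes, 0 passed in limma, where 0.361% of all genes tested passed. The part of the markers of all these cell types in the results was not tested.

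The intestinal epithelium of the same embryo numbers was used to ask whether a day difference was larger in liver. It gave 87 cells. Of 12961 genes tested, 0 (0%) passed in limma for a difference between the organs, with 1178 at an unadjusted p under 0.05 and a lowest adjusted p of 0.10. edgeR passed 32 genes and DESeq2 95. Side by side, Cldn6 was at 7.13 and 6.62 in the intestine at E9.5 and later and Epcam at 6.44 and 6.32, where the liver means were 4.39 and 0.87 and 3.73 and 1.27. Fabp1 was at 2.53 and 1.30 in the intestine and at 0.80 and 3.45 in liver, a difference between organs of −3.88 ± 0.728 (limma adjusted p = 0.103). Slc2a3 was higher at E9.5 by 2.45 in intestine and by 2.28 in liver, with a difference between organs of −0.17 ± 0.719. Of the 39 genes called in liver, 17 of the 18 higher at E9.5 and 11 of the 21 higher later had the same sign in intestine. The share of all genes with the same sign in both organs was not counted, and 59.5% of genes tested in liver had a positive difference. Some later genes were near 0 in intestine, where a sign says little. At E9.5 and later, Kng1 was at 0.02 and 0.00 there, Fga at 0.03 and 0.01 and Osgin1 at 0.01 and 0.02.

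**Figure D5:**
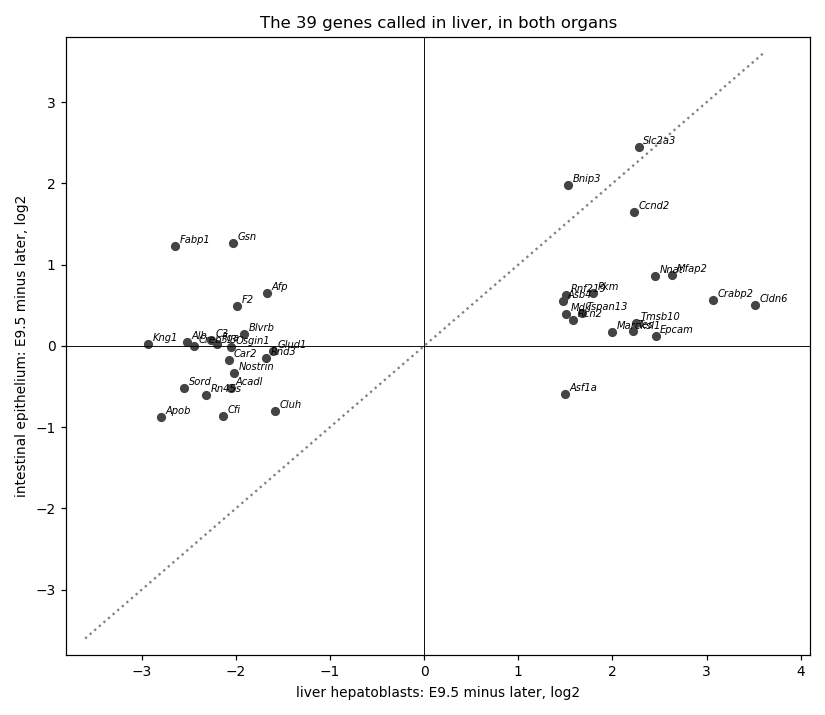
Difference of E9.5 minus later (log2) in intestinal epithelium (vertical axis) against that in hepatoblasts (horizontal axis) for the 39 genes called in liver, with the line of equal difference dotted. Slc2a3, Bnip3 and Ccnd2 lie near the line, Cldn6 and Epcam near 0 in intestine, and Fabp1 and Gsn on opposite sides of 0.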

How the data were processed

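Cells were dissected from the organs, picked singly and made into libraries by a modified STRT protocol. The authors aligned reads to mm10 with TopHat 2.0.12, counted uniquely mapped reads with htseq-count (version and annotation not given in the sources used here), removed duplicate UMIs and deposited CPM values (UMIs per 1000000 UMIs of the cell, 2 decimals), which they name TPM and which hold no gene length. The submitters' processing notes also name CASAVA 1.8.

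Cell identities came from the annotation of the study. Each deposited value was multiplied back to whole UMIs, and 100% of the values above 0 in liver and intestine were whole within 0.05. Of the identical columns of a file (14 in the series), 1 was kept. Tests ran on embryo means of log2(CPM/10 + 1), for genes that 3 or more cells held at 1 or more, with limma 3.58.1 in R 4.3.3 (eBayes with trend, 2-sided, Benjamini-Hochberg over all genes tested). Differences are on this log scale and understate those of low genes. A call needed an adjusted p under 0.05 and an absolute difference of at least 1. edgeR 4.0.16 and DESeq2 1.42.0 on UMIs summed per embryo were alternatives.

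Members, gene lists and tests were chosen with earlier results of these data known. Genes were named by rule: the 10 largest called differences in each direction, up to 6 members of each list with called members first, the 4 markers and liver transcription factors, 7 of which are given and 1 of which is not reported here. Genes outside it were named after their values were seen. Promoters are those of RefSeq, and 30 of the 39 called genes had one.

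By the labels, liver and intestine of 1 embryo number come from the same animal, but Xist and Y-linked genes disagree between both organs for 3 of 6 numbers. Deviations from group means correlated between organs of the same number with r from −0.0907 to 0.216, so the number was not taken as pairing. Depth limits single values: genes under 1 UMI per cell cannot be resolved.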

Additional observations from a re-analysis of the deposited data

How the results depend on the processing

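The number of genes called between E9.5 and later hepatoblasts, 39, moved with the processing. Since embryo means do not overlap in any of the 39, a setting that only leaves out, merges or weights embryos cannot turn their direction, and kept directions are not given. The number was 0 with no filter on low values, with the median over cells, with the sequencer as covariate and with the liver cells of E9.5 embryos 1 and 2 taken as 1 embryo, with 1521, 1115, 370 and 836 genes at an unadjusted p under 0.05. It was 15 in edgeR, 178 in DESeq2, 22 with cells thinned to 80000 UMIs (no hepatoblast was left out), 20 with embryos weighted by their cells, 11 with the E10.5 embryos only as later (the same fit as without E11.5 embryo 2), and 21 without the later cell of fewest UMIs. The settings on Rn45s, on 1 left-out cell and on merged embryos were chosen after seeing the data. Leaving out 1 embryo gave 4 to 121 calls, 4 without E9.5 embryo 1, 16 without E9.5 embryo 2, 121 without E9.5 embryo 3, 12 without E10.5 embryo 2 and 11 without E11.5 embryo 2. The causes were not tested. The other settings stayed within 1.5 times the count.

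For the difference between liver and intestine, 0 calls became 1 with no filter, 6 with genes at 1 or more in at least 10 cells, 32 in edgeR, 95 in DESeq2 and 24 with the median over cells, and 0 to 3 on leaving out 1 embryo. With the embryo number as replicate block it was 6 (the difference of E9.5 minus later was lower in liver for Fabp1, Gsn, Jun and Gpc3, and higher in liver for Idh3a and Tmsb10). Of the 6 liver embryos, 2 correlated best with the intestine of their own number, as a hint from the data and not from the design.

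The 7 liver transcription factors named whatever their values, all uncalled, turned sign under some settings. The values were −0.25 for Hhex and −0.50 for Tbx3 in edgeR, −0.31 for Hhex and −0.56 for Tbx3 in DESeq2, and −0.06 for Tbx3 and 0.058 for Cebpa in thinned cells. With the sequencer as covariate they were −0.15 for Hhex, −0.065 for Foxa2, −0.43 for Tbx3 and −0.45 for Onecut1, and with the E10.5 embryos only 0.17 for Hnf4a and −0.16 for Tbx3. Leaving out 1 embryo gave −0.16 to 0.72 for Tbx3, −0.85 to 0.30 for Prox1 and −0.71 to 0.17 for Hnf4a. Taking E9.5 embryos 1 and 2 as 1 gave −0.026 for Tbx3.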

Other observations

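The liver file of E10.5 holds the columns of both embryos of that day. Y-linked RNA (Ddx3y, Eif2s3y, Kdm5d or Uty) gave at least 1 UMI in 27 of the 48 columns of embryo 1, whose mean was 2.72 CPM, against 47 of the 48 columns of embryo 2 at 83.1 CPM. Xist gave at least 1 UMI in 18 of the 48 columns of embryo 2, at 2.55 CPM, against 45 of the 48 columns of embryo 1 at 81.9 CPM. In the liver file of E9.5 embryo 2, which holds that embryo alone, 0 of 48 columns had a UMI of these Y-linked genes.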
